A study of Mus musculus with 2 samples.

Results

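Chromosomes 4, 9 and 14 of mouse embryonic stem (ES) cells were described as trans partners of proximal chromosome 1, that is, through Hi-C read pairs that join chromosome 1 to a different chromosome. The 3 partners divide into 205 bins of 2 Mb (79 on chromosome 4, 63 on chromosome 9 and 63 on chromosome 14), out of 1145 bins on all 18 partner autosomes. They were chosen by measured values of the contrast described here, the ratio of the knockout to the wild-type library along each partner, so their levels, slopes and steps are a description and carry no test. After division by other autosomes at the same position, chromosome 14 was higher in the knockout library from about 30 Mb to its distal end, chromosome 9 was moderately higher with the larger values beyond 52 Mb, and chromosome 4 was near or below 1 up to 124 Mb, with its lowest bins in the middle, and higher in its gene-rich distal part, where *Lin28a* itself lies.

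Both libraries came from mouse ES cells kept for pluripotency in LIF/2i medium on gelatin with MEF feeder cells, which are embryonic fibroblasts that can add DNA of their own. One library is labelled wild-type and the other *Lin28a* knockout, the loss of an RNA-binding protein of pluripotent cells. The study made *Lin28a*-deficient lines both as CRISPR/Cas9 single clones and from knockout mice, and the labels do not tell which of these gave the Hi-C library. Strain and sex of the cells are not in the labels. The paper's methods name more than 1 ES line, and the labels do not tell which of them was used here. Hi-C holds no RNA, so the cell type could not be checked against marker genes. The labels mention 2 replicates, but each group has 1 list that names none. With 1 library per group, every difference below therefore lacks a replicate check. The 95% intervals, taken from how pairs of each bin divide between the libraries (exact binomial), cover the counting error of those pairs only. The values of other autosomes by which bins are divided are taken as fixed, so error in them is left out. Of trans pairs with a first end between 3 and 90.75 Mb of chromosome 1 and a partner on an assembled chromosome, the wild-type library held 2304846 and the knockout library 1764698, of which 379524 and 289969 reached chromosomes 4, 9 and 14. Beyond the chromosomes described here, the libraries stood apart in chromosomes 6 and 8, whose shares are given below, and in chromosome Y, with 4413 wild-type and 679 knockout pairs. Only contacts were available and no separate measure of DNA copies, so a change in copies of a chromosome per cell and a change in contacts per copy cannot be told apart.

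In the interphase nucleus each chromosome fills a territory of its own, and trans contacts form where territories meet or intermingle. Gene-rich and active segments tend to lie at the surface of territories and to meet other gene-rich segments, while gene-poor segments tend to gather near the lamina or the nucleolus. Mouse autosomes have the centromere at one end, so the distance from the chromosome start is close to the distance from the centromere, and centromeric ends often cluster in chromocenters. Distal chromosome 4 of the mouse is known for its gene-rich segments, whereas large parts of chromosome 14 are gene-poor.

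The target of the knockout was looked at first. *Lin28a* lies on the minus strand of chromosome 4 (GRCm38) from 134003330 to 134018841 and received 12 wild-type and 15 knockout trans pairs from chromosome 1. Pairs over the gene were thus not lost in the knockout library as a whole. A small lesion in an exon would leave such pairs in place, so these counts do not check the label. Its bin, 134 to 136 Mb, had the highest relative ratio of chromosome 4. The promoter windows of *Lin28a* and of the longest gene with its start in the highest bin of chromosomes 9 and 14 are shown, since these genes mark where each partner departed most from the other autosomes. The sequences are from RefSeq (GRCm38.p6), 300 bases each, written along the gene's strand, with capitals for GATC, the site at which the pair lists number their fragments (19952 of 20000 tested ends had a fragment number within 1 of the count of GATC sites). *Lin28a* is at chr4:134018767-134019066 on the minus strand, *Map4* at chr9:109931524-109931823 on the plus strand and *Ccser2* at chr14:36968715-36969014 on the minus strand.
*Lin28a*: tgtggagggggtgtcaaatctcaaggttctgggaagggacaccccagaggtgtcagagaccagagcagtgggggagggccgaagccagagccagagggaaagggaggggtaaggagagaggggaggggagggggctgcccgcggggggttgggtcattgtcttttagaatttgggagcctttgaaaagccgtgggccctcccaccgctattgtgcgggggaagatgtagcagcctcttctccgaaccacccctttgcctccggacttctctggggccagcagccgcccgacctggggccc
*Map4*: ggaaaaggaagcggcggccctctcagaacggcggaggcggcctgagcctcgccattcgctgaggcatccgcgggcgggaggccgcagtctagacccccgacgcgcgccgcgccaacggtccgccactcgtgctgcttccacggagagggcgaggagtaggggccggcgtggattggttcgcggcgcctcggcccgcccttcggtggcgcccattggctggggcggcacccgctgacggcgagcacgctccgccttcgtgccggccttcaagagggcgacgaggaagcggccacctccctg
*Ccser2*: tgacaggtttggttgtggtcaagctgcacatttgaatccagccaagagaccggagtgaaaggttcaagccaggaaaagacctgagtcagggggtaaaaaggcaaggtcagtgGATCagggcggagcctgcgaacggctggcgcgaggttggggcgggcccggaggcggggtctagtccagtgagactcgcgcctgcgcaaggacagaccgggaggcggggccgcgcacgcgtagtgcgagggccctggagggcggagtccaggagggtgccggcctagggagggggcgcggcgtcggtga
GATC reads the same on both strands. The window of *Ccser2* held 1 site and those of *Lin28a* and *Map4* held 0, while 48.0% of 32851 mouse promoter windows of this length held at least 1. G and C made up 63.3% of the *Lin28a* window, 73.3% of the *Map4* window and 66% of the *Ccser2* window, against a median of 52.7% over all promoters. The number of GATC sites in the whole 2 Mb bins was close for all 3 genes, at 5108, 5260 and 5176.

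For each bin the number of knockout pairs was divided by the number of wild-type pairs and scaled by the totals over 13 reference autosomes (2, 3, 5, 7, 10, 11, 12, 13, 15, 16, 17, 18 and 19), which leaves out the 3 members and also chromosomes 6 and 8, whose shares differed most between the libraries. This ratio before division fell along every autosome used: the slope of its log2 value was between -0.044 (chromosome 10) and -0.019 (chromosome 11) per 10 Mb on the 13 reference autosomes, with a median of -0.032. Chromosome 4 also fell, with a slope of -0.0150 ± 0.0013 (SE from counting). Chromosome 9 fell with a slope of -0.0184 ± 0.0017, and chromosome 14 with a slope of -0.0067 ± 0.0022. The fall was thus shallower on the 3 members than on any reference autosome, which for chromosome 9 was a difference from chromosome 11 far within the counting error. In the first 40 Mb the ratio was 1.09 on chromosome 4, 1.12 on chromosome 9 and 1.12 on chromosome 14, inside the reference range of 1.05 to 1.13. In the last 40 Mb it was 0.974, 1.00 and 1.07 in the same order, where reference autosomes had 0.851 to 0.998. The upper end of this range is chromosome 19, the shortest, so the last 40 Mb do not lie at like distances from the start.

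**Figure D1:**
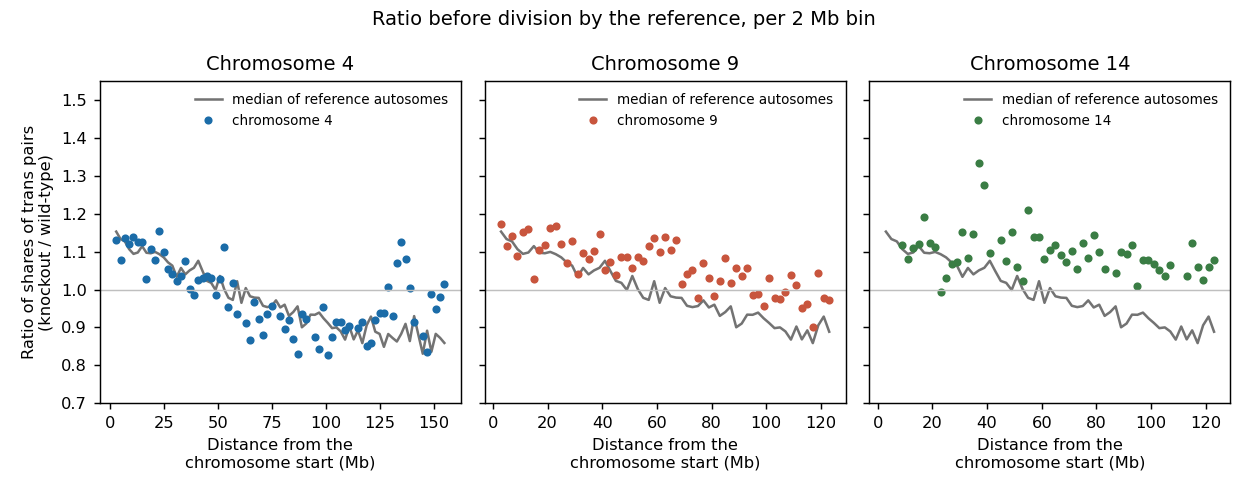
Ratio of knockout to wild-type trans pairs with chromosome 1 (scaled, no unit) for each 2 Mb bin against the distance of the bin from the chromosome start in Mb. Points are bins of chromosomes 4, 9 and 14 and the grey line is the median of the reference autosomes at the same distance, which falls from 1.15 at the start. Chromosome 14 leaves the line after the first 30 Mb, and chromosome 4 lies above it mainly near its distal end.

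Without the reference the parts beyond the steps described below gained no share of their chromosome, or hardly any. Of all pairs with chromosome 4, 25.0% (24.8 to 25.2) lay after 124 Mb in the wild-type and 25.0% (24.7 to 25.2) in the knockout library. Of those with chromosome 9, 56.9% (56.7 to 57.2) and 55.5% (55.2 to 55.8) lay after 52 Mb, a lower share in the knockout library. Of those with chromosome 14, 74.8% (74.5 to 75.0) and 75.0% (74.7 to 75.3) lay after 30 Mb, which did not differ beyond counting error.

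Every rise reported from here on is relative to the general fall: the relative ratio is the ratio of a bin divided by the median over the reference autosomes at the same distance from the start. Of the 205 bins, 72, 61 and 54 entered, since 7, 2 and 9 held under 50% of the median wild-type count of 1982.5 pairs per reference bin. On chromosome 4 the relative ratio ran from 0.869 to 1.27 with a median of 1.00, and 36 of 72 bins were over 1. On chromosome 9 it ran from 0.921 to 1.196 with a median of 1.07, and 56 of 61 bins were over 1. On chromosome 14 it ran from 0.909 to 1.27 with a median of 1.12, and 50 of 54 bins were over 1. The medians of reference autosomes, each set against the others, ran from 0.964 (chromosome 19) to 1.03 (chromosome 3).

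Pooled over bins, the knockout library held 1.02 (1.01 to 1.03) times the pairs expected from the wild-type library on chromosome 4, 1.067 (1.06 to 1.08) on chromosome 9 and 1.0998 (1.09 to 1.11) on chromosome 14. Pooled reference values ran from 0.959 (chromosome 19) to 1.03 (chromosome 3), so chromosomes 9 and 14 lay beyond this range and chromosome 4 within it. By plain share of trans pairs, over the median of the 18 partners, chromosome 14 had a knockout to wild-type ratio of 1.087 (1.08 to 1.097) and chromosome 9 had 1.05 (1.04 to 1.06). These were ranks 3 and 4, below chromosomes 8 (1.39) and 6 (1.29) and above chromosome 17 (1.02). Chromosome 4 was at rank 14 with 0.975 (0.967 to 0.983), so its distal rise does not show in its total.

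A bin was counted as past the fold at 1.1 or more, or at 0.909 or less, which are thresholds of size and not of a test. Of chromosome 4, 10 of 72 bins were past it on the higher side (13.9%) and 5 on the lower side (6.94%). Of chromosome 9, 18 of 61 bins (29.5%) were higher and 0 lower, and of chromosome 14, 35 of 54 bins (64.8%) were higher and 0 lower. Over the 740 bins of the reference autosomes, 4.73% were past the fold on the higher side and 5.68% on the lower side. Over all 1064 bins that entered on the 18 partners, chromosomes 6 and 8 included, the shares were 22.1% and 4.42%. Since the same ratios chose the members, nothing further is read from these counts. Many bins sat near the threshold: on chromosome 9 the bin at 54 to 56 Mb was just inside with 1.1005 (1.04 to 1.16) and the bin at 82 to 84 Mb just outside with 1.099 (1.02 to 1.18). On chromosome 14 the bin at 62 to 64 Mb was just inside with 1.1004 (1.04 to 1.17) and the bin at 68 to 70 Mb just outside with 1.096 (1.00 to 1.198). On chromosome 4 the nearest bins on the higher side were 126 to 128 Mb with 1.11 (1.04 to 1.17) and 150 to 152 Mb with 1.08 (1.01 to 1.14). On its lower side the bin at 62 to 64 Mb was just inside with 0.9084 (0.844 to 0.977) and the bin at 58 to 60 Mb just outside with 0.9144 (0.857 to 0.975).

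**Figure D2:**
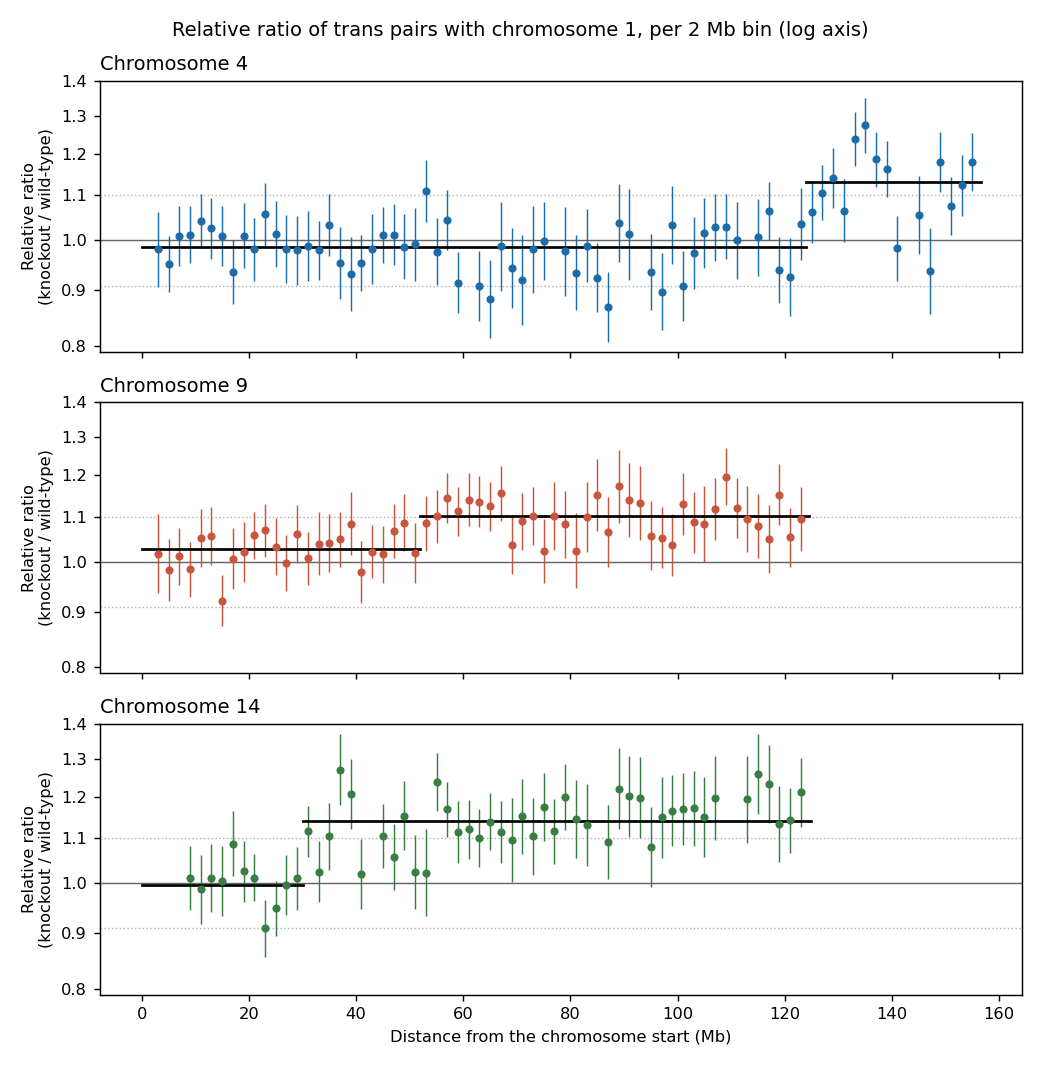
Relative ratio (knockout over wild-type, divided by the reference; log axis) of each 2 Mb bin against distance from the chromosome start in Mb. Vertical lines are 95% counting intervals, dotted lines mark 1.1 and 0.909, and black lines are the mean levels on both sides of the best single step, at 124 Mb on chromosome 4, 52 Mb on chromosome 9 and 30 Mb on chromosome 14.

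Each chromosome was divided into 3 successive parts with about equal numbers of the bins that entered. Along chromosome 14 the relative ratio rose over these parts, from 1.04 (1.02 to 1.05) to 1.13 (1.11 to 1.15) and 1.17 (1.15 to 1.19). Its slope was 0.0237 ± 0.0022 log2 units per 10 Mb, above every reference autosome (-0.015 on chromosome 10 to 0.015 on chromosome 11). The single split that left the least scatter was at 30 Mb, where the level changed from 0.997 over 11 bins to 1.14 over 43 bins, a step of 1.14-fold (1.12 to 1.17). All 43 bins after the split were over 1, with a range from 1.02 to 1.27, and the 11 bins before it ran from 0.909 to 1.09, so both sides overlapped. *Actr8*, a subunit of a chromatin remodelling complex, and *Il17rb*, an interleukin 17 receptor, are the protein-coding genes nearest to the split, and their transcripts overlap across it. A step left a scatter of 2.13 times the counting variance and a straight line 2.51 times, while a flat level left 4.73 times.

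The highest bin of chromosome 14 was 36 to 38 Mb, with 1431 wild-type and 1397 knockout pairs and a relative ratio of 1.27 (1.18 to 1.37). Of the bins of that chromosome that entered, it was the one in which the counts of both libraries came closest to equal, although the knockout library was the smaller one. The longest of its 8 protein-coding genes are *Ccser2*, *Cdhr1*, a cadherin of photoreceptors, and *Ghitm*, a mitochondrial membrane protein. The next bin, 38 to 40 Mb, had 1491 and 1392 pairs and 1.21 (1.12 to 1.2996), and holds the start of 1 protein-coding gene, *Nrg3*, a ligand of ErbB4 that was named after its bin was seen. In windows of 500 kb, all 8 windows from 36 to 40 Mb were over 1.1, from 1.17 (1.00 to 1.35) to 1.42 (1.21 to 1.66), the highest of them at 36.5 to 37 Mb with 300 wild-type and 327 knockout pairs. The adjoining windows had 1.08 (0.926 to 1.25) at 35.5 to 36 Mb and 1.04 (0.904 to 1.201) at 40 to 40.5 Mb, but windows a little further out, 34.5 to 35 Mb with 1.23 (1.07 to 1.41) and 40.5 to 41 Mb with 1.17 (1.04 to 1.31), were as high as several inside, so the stretch has no sharp bounds. The other high bins were of opposite kinds. The bin at 114 to 116 Mb, with 1221 and 1003 pairs and 1.26 (1.16 to 1.37), holds a single protein-coding gene, *Gpc5*, a cell-surface heparan sulfate proteoglycan. The bin at 54 to 56 Mb, with 2268 and 2009 pairs and 1.24 (1.17 to 1.32), holds 79 genes, among them the amino acid transporter genes *Slc7a8* and *Slc7a7* and *Acin1*.

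The low bins of chromosome 14 all lay before the split. The lowest, 22 to 24 Mb, had 2547 wild-type and 1852 knockout pairs and 0.909 (0.856 to 0.966), and holds *Lrmda*. It was followed by 24 to 26 Mb with 2686 and 2022 pairs and 0.949 (0.895 to 1.01), the bin of the potassium channel gene *Kcnma1* and of *Zmiz1* and *Dlg5*. The bin at 10 to 12 Mb, with the tumour suppressor gene *Fhit* and the phosphatase gene *Ptprg*, had 0.987 (0.918 to 1.06), which does not differ from 1 beyond its counting error.

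Along chromosome 9 the 3 parts were 1.02 (1.01 to 1.04), 1.09 (1.07 to 1.102) and 1.102 (1.08 to 1.12), so the last 2 did not differ beyond their intervals. The slope of 0.0128 ± 0.0017 per 10 Mb lay within the range of the reference autosomes. The best split was at 52 Mb, between *Fdx1*, a mitochondrial ferredoxin of steroid synthesis, and *Rdx*, the actin linker radixin, where the level changed from 1.03 over 25 bins to 1.102 over 36 bins. The step of 1.07-fold (1.06 to 1.09) was also within the reference range, where the largest step was 1.12-fold in size, a fall on chromosome 10. Each of the 36 bins after the split was over 1, from 1.02 to 1.196, and 20 of the 25 bins before it were, from 0.921 to 1.09. Chromosome 9 thus lay outside the reference range in level and within it in slope and step.

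The highest bin of chromosome 9, 108 to 110 Mb, had 2478 wild-type and 1882 knockout pairs and 1.196 (1.13 to 1.27). With 65 genes it is one of the gene-dense bins, and its longest genes are *Map4*, a microtubule-associated protein, *Bsn*, the presynaptic protein bassoon, and *Prkar2a*, a regulatory subunit of protein kinase A. The 4 windows of 500 kb in it had 1.28 (1.14 to 1.42), 1.095 (0.960 to 1.25), 1.11 (0.967 to 1.26) and 1.27 (1.13 to 1.42), so no single window carried the bin. It was followed by 88 to 90 Mb with 1494 and 1154 pairs and 1.17 (1.09 to 1.27), with the folate enzyme gene *Mthfs*, the Ras exchange factor gene *Rasgrf1* and *Snx14*. The third was 66 to 68 Mb with 2578 and 2132 pairs and 1.16 (1.09 to 1.22), with the talin gene *Tln2*, the ubiquitin ligase gene *Herc1* and *Vps13c*. Of the lowest bins, only 14 to 16 Mb (*Amotl1*, *Deup1*, *Hephl1*) had an interval below 1, with 3089 and 2320 pairs and 0.921 (0.873 to 0.973). The bins at 40 to 42 Mb (*Gramd1b*, *Ubash3b*, *Clmp*) and 4 to 6 Mb (*Gria4*, *Casp4*, *Casp12*) had 0.978 (0.916 to 1.04) and 0.983 (0.920 to 1.05).

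Chromosome 4 had another shape than chromosomes 9 and 14. Its 3 parts were 0.994 (0.981 to 1.01), 0.964 (0.949 to 0.979) and 1.09 (1.07 to 1.104), so the middle was the lowest. Reference chromosome 5 had much the same course, with 0.997, 0.957 and 1.07, a highest bin of 1.27 and a scatter of 6.46 times the counting variance about a flat level. The slope of 0.0122 ± 0.0013 per 10 Mb lay within the reference range, and a line described the chromosome poorly: the scatter was 5.49 times the counting variance about a flat level, 4.22 times about a line and 2.71 times about a step. The split was at 124 Mb, where the level changed from 0.986 over 57 bins to 1.13 over 15 bins, a step of 1.15-fold (1.13 to 1.17), beyond the largest of a reference autosome (1.12-fold in size on chromosome 10 and 1.11-fold on chromosome 5, also a distal rise). Of the 15 bins after the split 13 were over 1, with a range from 0.938 to 1.27. Before it 23 of 57 were over 1, with a range from 0.869 to 1.11, so both sides overlapped. Gene density was 6.39 protein-coding genes per Mb before the split and 16.5 after it, and the genes nearest to it are *4930535I16Rik* and *3100002H09Rik*. The distal part rests on few reference autosomes, between 2 and 5 per position, because most mouse chromosomes are shorter. The error of a median of so few is not in the intervals, which are too narrow there. Keeping only positions with at least 5 reference autosomes left 60 bins and removed every bin from 130 Mb on, the 3 highest included. The slope of the rest was 0.0026, with an interval of -0.00078 to 0.0059, and the best step was 1.08-fold at 120 Mb. Since the raised bins themselves were removed, this does not show how they would stand against more reference autosomes.

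The 3 highest bins of chromosome 4 were neighbours. The bin at 132 to 134 Mb had 2706 wild-type and 2117 knockout pairs and 1.24 (1.17 to 1.31), and holds *Epb41*, a protein of the membrane skeleton, *Eya3* and *Arid1a*, a subunit of the BAF chromatin remodelling complex. The bin at 134 to 136 Mb had 2581 and 2125 pairs and 1.27 (1.203 to 1.35), and holds, beside *Lin28a*, the Golgi mannosidase gene *Man1c1*, *Clic4* and the transcription factor gene *Runx3*. The bin at 136 to 138 Mb had 2622 and 2071 pairs and 1.19 (1.12 to 1.26), and holds *Eif4g3*, a translation initiation factor, *Ephb2*, a receptor of ephrins, and *Ece1*. In 500 kb windows the 12 windows of these bins ran from 1.07 (0.952 to 1.19) at 136.5 to 137 Mb to 1.35 (1.21 to 1.505) at 134.5 to 135 Mb. The window that holds *Lin28a*, 134 to 134.5 Mb, had 563 and 464 pairs and 1.28 (1.13 to 1.45), no more than its neighbours within their intervals. The rise was not even: bins at 140 to 142 Mb with 0.984 (0.918 to 1.05) and 146 to 148 Mb with 0.938 (0.855 to 1.03) were not raised. The ratio was up again at 148 to 150 Mb with 1.18 (1.11 to 1.26) and at 154 to 156 Mb with 1.18 (1.11 to 1.26). Each of these bins was set against 2 or 3 reference autosomes, whose error the intervals leave out.

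The low bins of chromosome 4 lay in its middle. The lowest, 86 to 88 Mb, had 1867 wild-type and 1134 knockout pairs and 0.869 (0.806 to 0.936), and its longest genes are *Slc24a2*, a sodium, calcium and potassium exchanger, *Saxo1* and *Dennd4c*. The bin at 64 to 66 Mb had 1499 and 951 pairs and 0.883 (0.813 to 0.959), with the metalloproteinase gene *Pappa*, the tenascin gene *Tnc* and *Trim32*. The bin at 96 to 98 Mb had 1551 and 956 pairs and 0.897 (0.827 to 0.973), with *Nfia*, a nuclear factor I gene, *E130114P18Rik* and *Cyp2j8*.

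Bins of one chromosome are neighbours on the same DNA molecule and share a library, so correlations over bins are given as a description. With the number of protein-coding genes per bin, the relative ratio of chromosome 4 had Pearson's r = 0.51 and Spearman's rho = 0.44 over 72 bins, chromosome 9 had r = 0.18 and rho = 0.17 over 61 bins, and chromosome 14 had r = -0.10 and rho = -0.28 over 54 bins. On the 13 reference autosomes r ran from -0.051 to 0.54 with a median of 0.16, so that of chromosome 14 was the lowest and that of chromosome 4 near the highest. The ratio before division had r = -0.057 on chromosome 4, 0.096 on chromosome 9 and 0.22 on chromosome 14. Over all bins of chromosome 4 together, the relation to gene count was thus seen in the relative ratio and not before division. Before division it was not computed for the bins on each side of the split. With GC content, r was 0.57, 0.21 and -0.38 in the same order, against -0.10 to 0.50 on reference autosomes. Part of the relation on chromosome 4 is its step, since the median bin held 35 genes after the split and 9 before it. Within the 57 bins before the split r with gene count was 0.15, and within the 15 bins after it 0.64. On chromosome 9 it was 0.23 before and 0.36 after the split, and on chromosome 14 0.13 before and -0.29 after.

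By classes of gene count, the 19 bins of chromosome 4 with 27 to 62 genes had a pooled relative ratio of 1.08 (1.07 to 1.1002) and the 18 bins with 1 to 4 genes had 0.966 (0.949 to 0.984). On chromosome 9 the classes were close, from 1.04 (1.02 to 1.06) for 10 to 15 genes to 1.09 (1.07 to 1.103) for 27 to 81 genes. On chromosome 14 the order was the opposite of that on chromosome 4, with 1.12 (1.097 to 1.14) for the 15 bins with 0 to 3 genes and 1.09 (1.06 to 1.11) for the 7 bins with 27 to 79, whose intervals overlap. The reference autosomes had 1.00 (0.995 to 1.01) in the class of fewest genes and 1.02 (1.02 to 1.03) in that of most. Higher values were thus found in gene-rich bins on chromosome 4 and at all gene counts on chromosomes 9 and 14.

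**Figure D3:**
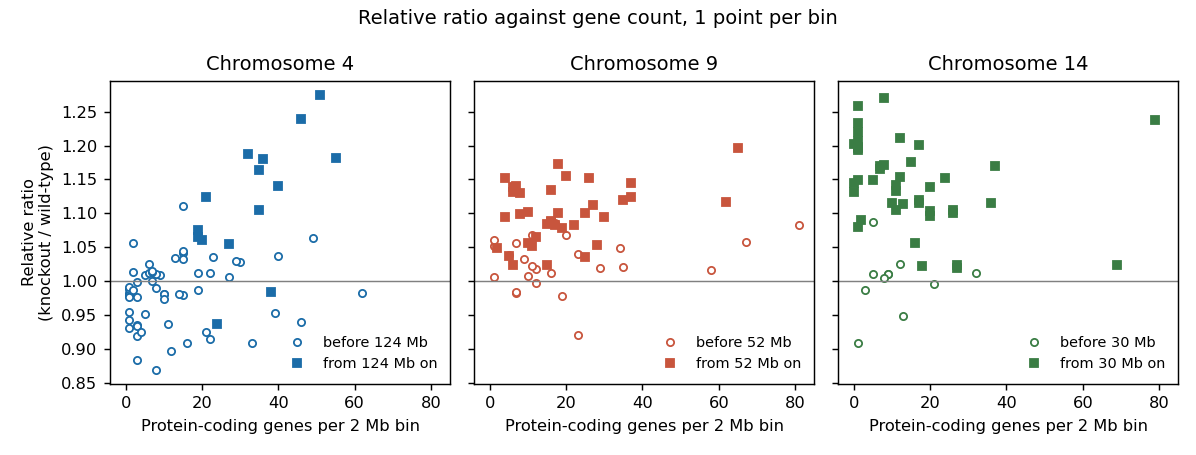
Relative ratio (knockout over wild-type, no unit) against the number of protein-coding genes per 2 Mb bin, with 1 point per bin and filled squares for bins after the split. On chromosome 4 the high bins are mostly those after 124 Mb with over 30 genes, while on chromosome 14 bins with almost no genes reach 1.26.

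With the distance from the start, r was 0.42 on chromosome 4, 0.59 on chromosome 9 and 0.70 on chromosome 14, where reference autosomes had -0.55 to 0.62. With the distance from the nearer end, r was -0.48 on chromosome 4, 0.27 on chromosome 9 and 0.083 on chromosome 14, against -0.32 to 0.39 on reference autosomes. On chromosome 4 only the distal end was high, since the first of its 3 parts was at 0.994 (0.981 to 1.01) and the middle was lower. The ratio was then set against a fit on the 758 bins of the reference autosomes that used gene count and the distances from both ends. In this fit the ratio changed 0.984-fold per 10 Mb from the start and 1.01-fold per doubling of the gene count. What remained was 1.01 (0.999 to 1.02) on chromosome 4, 1.06 (1.05 to 1.07) on chromosome 9 and 1.098 (1.09 to 1.11) on chromosome 14, against 0.978 to 1.02 on reference autosomes. The remaining slopes were 0.0127, 0.0103 and 0.0237 per 10 Mb, against -0.017 to 0.010. Chromosome 4 kept a step of 1.18-fold, now at 128 Mb, against 1.13-fold at most on a reference autosome, a distal rise on chromosome 2. The step of chromosome 14 became 1.12-fold at 34 Mb and that of chromosome 9 1.06-fold at 52 Mb, both within the reference range. In the bin of *Lin28a* the remaining ratio was 1.28, as large as before.

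The same partners were then viewed from 5 stretches of chromosome 1. Chromosome 9 changed with the viewpoint: its pooled relative ratio was 1.13 (1.11 to 1.15) from 3 to 21 Mb, 1.11 (1.09 to 1.13) from 21 to 38 Mb, 1.04 (1.02 to 1.06) from 38 to 56 Mb, 1.01 (0.990 to 1.03) from 56 to 73 Mb and 1.04 (1.02 to 1.06) from 73 Mb on. The change lay mostly in the part before 52 Mb, which went from 1.14 (1.12 to 1.17) at the first stretch to 0.934 (0.906 to 0.962) at the fourth. As a result chromosome 9 had no slope as seen from the first stretch (-0.0029 ± 0.0037) and slopes from 0.0209 to 0.0232 from the others. Chromosome 14 was high from all 5 stretches, at 1.12 (1.09 to 1.14), 1.12 (1.09 to 1.14), 1.09 (1.07 to 1.11), 1.08 (1.05 to 1.1004) and 1.11 (1.09 to 1.13). Its part after 30 Mb stayed between 1.11 (1.09 to 1.14) and 1.15 (1.13 to 1.18), and its part before 30 Mb went from 1.05 (1.02 to 1.09) at the first stretch to 0.951 (0.907 to 0.997) at the fourth. Chromosome 4 before 124 Mb was between 0.969 and 0.999 from each stretch, and its distal part was between 1.08 (1.04 to 1.13) and 1.18 (1.13 to 1.22).

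**Figure D4:**
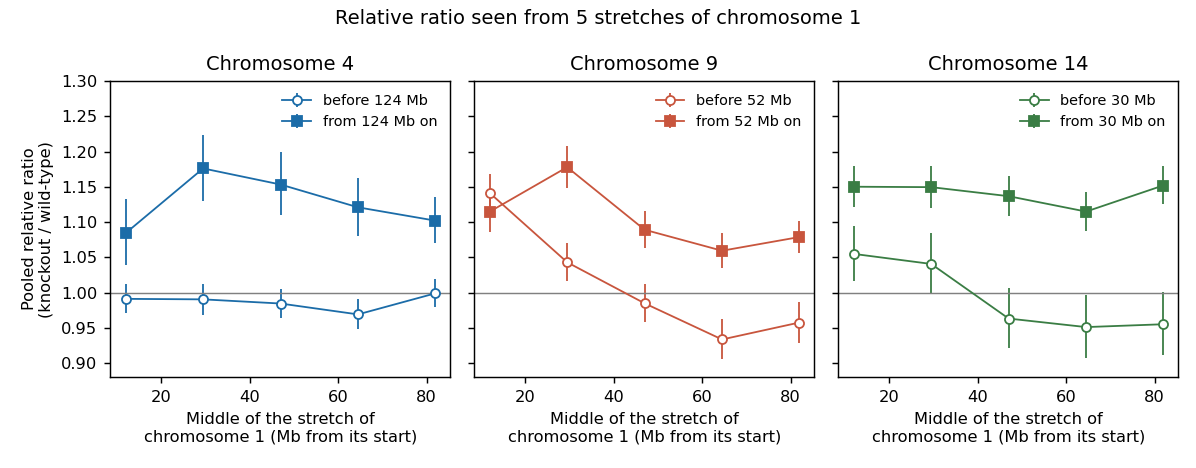
Pooled relative ratio (no unit) of the parts before and after the split of each chromosome, against the middle of the stretch of chromosome 1 that holds the first ends, in Mb from its start. Vertical lines are 95% counting intervals. The part of chromosome 9 before 52 Mb falls from 1.14 to below 1, and the distal parts of chromosomes 4 and 14 are over 1 from all 5 stretches.

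First ends were also divided by the gene content of chromosome 1, as 29 windows of 1 Mb with 6 to 30 genes and 29 windows with 0 to 2 genes. Distal chromosome 4 was 1.18 (1.15 to 1.21) from gene-rich windows and 1.08 (1.04 to 1.12) from gene-poor windows, whose intervals do not overlap. Chromosome 9 before 52 Mb was 0.998 (0.978 to 1.02) from gene-rich and 1.04 (1.02 to 1.07) from gene-poor windows, and after 52 Mb 1.11 (1.09 to 1.13) and 1.07 (1.05 to 1.096). Chromosome 14 after 30 Mb was 1.14 (1.12 to 1.16) and 1.12 (1.097 to 1.15), which did not differ beyond counting error.

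A list of 26 genes on these chromosomes, with known roles in pluripotency, development or growth control, gives values by bin, since single genes received from 0 (*Duxbl1*, in both libraries) to 141 wild-type pairs (*Smad3*). On chromosome 4, the bins of *Klf4*, a pluripotency factor, with 0.976 (0.909 to 1.05), *Jun*, an AP-1 subunit, with 0.936 (0.864 to 1.01), *Cdkn2a*, which encodes cell cycle inhibitors, with 1.04 (0.956 to 1.13), and *Tal1*, a blood transcription factor, with 1.01 (0.928 to 1.09) were at 1 within their intervals. All of them lie before 124 Mb. Beyond it, the bins of *Hdac1*, a histone deacetylase, with 1.14 (1.07 to 1.22), *Pax7*, a muscle stem cell factor, with 1.16 (1.096 to 1.23), and *Mtor*, the growth-control kinase, with 1.18 (1.11 to 1.26) were high. On chromosome 9, the bin shared by *Dppa5a* and *Ooep*, genes of early embryos, had 1.08 (1.01 to 1.16). The bin of *Tdgf1*, a Nodal co-receptor, had 1.12 (1.05 to 1.19). The bins of *Smad3* with 1.14 (1.08 to 1.198) and *Zic1* with 1.14 (1.05 to 1.23), also beyond 52 Mb, were above 1, while those of *Ets1* with 1.04 (0.972 to 1.11) and *Chek1* with 1.05 (0.989 to 1.11), before it, were not set apart from it. On chromosome 14, the bins of *Bmp4* with 1.06 (0.986 to 1.13), *Wnt5a* with 1.01 (0.945 to 1.08) and *Sall2* with 1.02 (0.932 to 1.12) were at 1 within their intervals. Those of *Otx2*, a factor of the exit from naive pluripotency, with 1.15 (1.07 to 1.24), the retinoblastoma gene *Rb1* with 1.104 (1.02 to 1.198), *Gata4*, a factor of primitive endoderm, with 1.1004 (1.04 to 1.17), and *Zic2* with 1.21 (1.13 to 1.30) were above it.

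Read names showed 2 sequencing runs in each library, not matched to replicates by the labels, with 2119022 and 203581 trans pairs in the wild-type and 1702907 and 75953 in the knockout library. In the 4 combinations of a wild-type with a knockout run, the pooled relative ratio was between 1.02 and 1.05 on chromosome 4, 1.06 and 1.09 on chromosome 9 and 1.096 and 1.134 on chromosome 14. The parts after the splits were over 1 in each combination, between 1.12 and 1.17 on chromosome 4, 1.101 and 1.129 on chromosome 9 and 1.13 and 1.19 on chromosome 14. The splits were found in these same pairs, most of them from the larger runs, and the combinations share runs. These values are therefore a description and not a separate check.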

How the data were processed

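Per the labels, cross-linked ES cells were ligated, and the pulled-down DNA was sequenced as paired ends. The submitters' processing notes name CASAVA 1.8, Bowtie2, HiC-Pro and the mm10 build. The deposited lists give 1 pair per line with a mapping quality score for each end, which ran from 11 to 42, and the counts of pairs used here were not normalized by the authors. Both lists are sorted by first end and were partial: the wild-type list ended at 90862049 of chromosome 1 and the knockout list on chromosome 2, so first ends from 3 to 90.75 Mb of chromosome 1 were compared. Pairs with unplaced contigs (16746 and 13578) were left out.

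Bins were divided by the median of at least 2 reference autosomes at the same position. Slopes and steps came from least squares on log2 values weighted by counting variance, with at least 10 Mb on each side of a step. The genes named were the 3 longest protein-coding genes of the 3 highest and 3 lowest bins of each chromosome, those next to each step, and a list of 26, of which 1 is not reported here. The members and lists were chosen with earlier results of these data known. No test was made, since a group is 1 library. Intervals show the counting error of the pairs in the bins themselves, not error of the reference median or scatter between bins beyond counting. Genes came from GENCODE release M21 and the sequence from GRCm38. The calculation was checked on simulated counts with a known level on chromosome 9, slope on chromosome 14 and step on chromosome 4. It recovered these on average within set tolerances. The simulated counts had no scatter beyond counting, unlike the data, so the check does not show how well a split is placed here. Python 3.11.15, numpy 2.4.6, pandas 2.3.3 and scipy 1.17.1 were used. Alternatives were the mapping quality, the runs, the bin size, the reference, the first ends and the filter on few pairs. Those on chromosome 5, on positions with at least 5 reference autosomes and on the smaller runs alone were chosen after seeing the data.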

Additional observations from a re-analysis of the deposited data

How the results depend on the processing

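No paired analysis was possible because each group is 1 library. The gradients reversed without matching by position, to -0.0150, -0.0184 and -0.0067 log2 units per 10 Mb on chromosomes 4, 9 and 14. They also reversed with matching by gene count, to -0.0145, -0.0183 and -0.0076, since the ratio falls along every autosome used. Matching by the distal end gave 0.0073, 0.0070 and 0.018. First ends from 3 to 47 Mb gave 0.016 on chromosome 14, and those from 47 Mb on gave 0.0090, 0.022 and 0.035. The smaller runs alone gave 0.022 on chromosome 9 and 0.016 on chromosome 14, the latter with an interval of -0.0014 to 0.034. At least 5 reference autosomes gave 0.0026 on chromosome 4, a setting that, here and below, drops its bins from 130 Mb on. The median relative ratio of chromosome 4 went to 0.989 with bins of 5 Mb, 0.966 unmatched, 0.959 from the distal end, 0.966 by gene count, 0.985 with all autosomes, 0.988 with at least 5 reference autosomes and 1.04 in the smaller runs. That of chromosome 9 went to 1.11 and 1.02 with first ends before and after 47 Mb and to 1.08 in the smaller runs. That of chromosome 14 stayed between 1.09 and 1.14 in all 13 alternatives, with 1.13 (bins of 5 Mb), 1.09 (unmatched), 1.096 (by gene count), 1.14 and 1.11 (first ends before and after 47 Mb). Bins past the fold on chromosome 4, 15 in the report, were 27 unmatched, 24 from the distal end, 26 by gene count, 8 with at least 5 reference autosomes and 45 in the smaller runs. On chromosome 9, 18 became 37 with first ends before 47 Mb and 36 in the smaller runs. A fold of 1.2 left 2, 0 and 9 bins. Of 13 alternatives the split stayed in place in 4, 6 and 8. Unmatched, the largest steps were falls, 0.877-fold at 54 Mb, 0.912-fold at 68 Mb and 0.957-fold at 82 Mb. Counting error per bin was about 0.05 log2 units.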

Other observations

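The knockout list also held first ends beyond the part of chromosome 1 shared with the wild-type list, and on chromosome 2, which have no wild-type counterpart here. Among trans pairs with autosomes other than 1, 2, 6 and 8, chromosome 9 took 8.16% (8.11 to 8.21, Clopper-Pearson) as seen from the shared part of chromosome 1, 6.94% (6.90 to 6.99) from the rest of chromosome 1 and 8.53% (8.47 to 8.60) from chromosome 2. Chromosome 14 took 6.04% (6.00 to 6.08), 5.85% (5.81 to 5.89) and 5.90% (5.85 to 5.95) in the same order, and chromosome 4 took 7.72% (7.68 to 7.77), 8.89% (8.84 to 8.94) and 7.66% (7.61 to 7.72). In the wild-type library the shared part gave 7.75% (7.71 to 7.79), 5.55% (5.52 to 5.59) and 7.92% (7.88 to 7.96) for chromosomes 9, 14 and 4. The shares of chromosomes 9 and 4 thus differed more between the shared part and the rest of chromosome 1 than between the libraries at the shared part. For chromosome 14 the libraries differed more. From chromosome 2, the share of each of these chromosomes lay closer to that from the shared part than the libraries lay to each other, for chromosome 9 only slightly. Of the knockout pairs with chromosome 14, 75.0% (74.7 to 75.3) lay after 30 Mb as seen from the shared part (74.8% in the wild-type library), 85.7% (85.5 to 85.9) from the rest of chromosome 1 and 71.8% (71.4 to 72.2) from chromosome 2.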
